A study of Mus musculus with 18 samples.

Results

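The kidney keeps glucose in the body in 2 ways. Cells of the proximal tubule take filtered glucose back from the tubular fluid, first by cotransport with sodium across the apical membrane and then by facilitated diffusion across the basolateral membrane into the blood. The same cells make new glucose from lactate, glutamine, and glycerol, a capacity the kidney shares with the liver and which is induced by acidosis, fasting, and glucocorticoids. Expression of 10 genes of these steps was described in kidney RNA, chosen by name and by the step they serve: 3 of apical entry (*Slc5a1*, *Slc5a2*, *Slc5a4b*), 2 of basolateral exit (*Slc2a1*, *Slc2a2*), and 5 of gluconeogenesis (*Pcx*, *Pck1*, *Fbp1*, *G6pc1*, *Slc37a4*). These are 10 of the 78239 genes listed in each library, and 9 of them passed the minimum of 10 counts in every library, *Slc5a4b* being the exception.

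The libraries came from the kidneys of 18 wild-type, outbred CD-1 mice aged 6 wk, 1 library per mouse. The mothers were fed a low-protein (LP, 8% protein) or normal-protein (NP, 18% protein) diet through pregnancy and lactation, and the pups of both arms were weaned onto the NP diet. The 4 groups held 5 mice each, except for the NP females with 3, and every mouse was injected with cationic ferritin, a label for glomeruli, before collection. Males were collected 90 min and females 24 h after the last injection, so that sex and time of collection cannot be told apart in any comparison of males with females. The LP diet held more sucrose than the NP diet. The labels do not tie the mice to litters, but the study reports fewer litters of adults than there are mice of either diet here. Some mice of the same diet therefore shared a mother. The p-values and intervals treat mice as independent and measure the spread between mice, not between litters.

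The depth ran from 14050486 to 23562411 reads on genes. A set of 3 female libraries, LP female 1, LP female 2, and NP female 3, stood apart from the other 5. The summed level of 6 glucocorticoid-induced genes was 409 to 570 CPM (a gene's counts as a share of the library's reads on genes, scaled to a common total) in these 3, against 1197 to 1650 CPM in the other females and 649 to 1176 CPM in the males. That of 7 interferon-induced genes was 86.6 to 167 CPM, against 766 to 3071 and 571 to 1184 CPM, and that of 4 tubular injury genes was 20.0 to 27.0 CPM, against 233 to 480 and 48.2 to 163 CPM. Leukocyte markers and multimapping reads were higher in these 3 females, with values given beside *Pck1*. Comparisons that rest on females are therefore given with and without these 3 libraries for the 9 genes tested, their ratios, and the counts of gene lists. The 5 general proximal tubule markers summed to 9297 to 15760 CPM in all 18 libraries. Adipocytes, which also express *Pck1*, *Pcx*, and *Slc2a4*, were traced by 6 markers, whose summed level was 0 to 84.5 CPM in males and 0.106 to 241 CPM in females. *Cyp11b1*, the defining gene of the adrenal cortex, was at 0 counts in every library. The 4 adrenal cortex markers that include it summed to 1.43 to 3.26 CPM in males and 0.415 to 4.24 CPM in females. In RNA from whole tissue, fewer cells of a type and less RNA per cell cannot be told apart.

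The sequence before the start of transcription is shown for *Pck1* and *G6pc1*, the genes of an early and the last step of gluconeogenesis, and for *Slc5a1*, of apical entry. They were chosen after the values had been seen. *Pck1* and *Slc5a1* were lower in the 3 females that stood apart than in the other 5, without overlap, and *G6pc1* was lower with overlap. *Slc37a4*, also lower without overlap, has 3 annotated windows and is not printed. The 250 bases before the start are given 5′ to 3′ from RefSeq (GRCm38.p6, plus strand), chr2:173152823-173153072 for *Pck1*, chr11:101367466-101367715 for *G6pc1*, which RefSeq lists as *G6pc*, and chr5:33103969-33104218 for *Slc5a1*. Capitals mark matches to any of 4 motifs on either strand.
Pck1: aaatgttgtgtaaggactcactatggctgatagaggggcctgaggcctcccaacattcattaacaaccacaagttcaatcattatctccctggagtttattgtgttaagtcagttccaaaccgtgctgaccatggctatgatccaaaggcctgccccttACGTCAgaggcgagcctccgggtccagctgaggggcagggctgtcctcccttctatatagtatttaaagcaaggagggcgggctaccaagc
G6pc1: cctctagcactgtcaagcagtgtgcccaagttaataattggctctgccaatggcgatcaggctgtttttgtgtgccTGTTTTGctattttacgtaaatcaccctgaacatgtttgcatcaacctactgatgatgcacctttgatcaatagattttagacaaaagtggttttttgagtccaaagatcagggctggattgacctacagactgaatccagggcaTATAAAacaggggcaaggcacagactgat
Slc5a1: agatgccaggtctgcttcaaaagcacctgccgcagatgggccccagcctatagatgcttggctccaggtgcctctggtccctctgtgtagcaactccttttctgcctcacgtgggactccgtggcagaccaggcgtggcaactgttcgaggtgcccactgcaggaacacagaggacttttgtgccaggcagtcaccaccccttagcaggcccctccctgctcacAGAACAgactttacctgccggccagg

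The motifs were a cAMP response half-site (TGACGT), a glucocorticoid response half-site (AGAACA), the core of an insulin response element (CAAAACA), and a TATA box (TATAAA), and they were chosen after the sequences had been seen. Of 32851 promoter windows of this length, 6.47% held the cAMP half-site, 16.1% the glucocorticoid half-site, 5.56% the insulin core, and 12.4% the TATA box. The *Pck1* window held the cAMP half-site at base 91 before the start, on the minus strand. The *G6pc1* window held the insulin core on the minus strand at base 174 and the TATA box at base 29. The *Slc5a1* window held a single match, the glucocorticoid half-site at base 26. Over the 9 genes other than *Slc5a2*, 7 of 12 windows held at least 1 match, and no 2 matches in the printed windows overlapped. Among the 7 were 2 overlapping windows of *Slc37a4* that held the same cAMP half-site. The share of all windows with any of the 4 motifs was not taken, so that this count has no background beside it. Windows of *Slc2a1*, *Slc2a2*, *Pcx*, and *Fbp1* held none. A match is a run of letters, and none of these data show a factor bound there.

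Levels were compared between genes as CPM per kilobase (kb) of exon. *Pck1*, which encodes cytosolic phosphoenolpyruvate carboxykinase, was the most abundant of the 10 genes, with a median of 1026 (668 to 1241) CPM per kb in the males and 1939 (1161 to 2542) in the females (lowest and highest library in parentheses), in each sex above every value of the other genes. *Fbp1*, encoding fructose-1,6-bisphosphatase, had a median of 608 (516 to 656) in males and 512 (499 to 754) in females. *G6pc1*, the catalytic subunit of glucose-6-phosphatase that frees glucose in the last step, had 418 (308 to 657) and 465 (349 to 753). *Fbp1* and *G6pc1* overlapped across libraries in both sexes.

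By this measure the next 3 genes lay below the lowest library of *G6pc1* in both sexes. For *Slc37a4* this place is uncertain, because reads on shared exons were left out, as described below. *Pcx*, encoding the mitochondrial pyruvate carboxylase, had 114 (93 to 130) CPM per kb in males and 83 (60.6 to 91.8) in females. *Slc5a2*, encoding SGLT2, the high-capacity glucose cotransporter of the early proximal tubule, had 97.5 (51 to 138) and 148 (44.5 to 192). *Slc37a4*, encoding the transporter that carries glucose-6-phosphate into the endoplasmic reticulum, had 93.6 (81.2 to 109) and 88.3 (58.2 to 121). The ranges of these 3 genes overlapped in both sexes, so that their order was not resolved.

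*Slc2a2*, encoding GLUT2, the basolateral exit route of the early segments, had 20.5 (11.7 to 26.1) CPM per kb in males and 20.5 (9.13 to 31) in females. *Slc5a1*, encoding SGLT1, the high-affinity cotransporter of the later segments, had 17.8 (13.2 to 21.5) and 33.1 (21.1 to 47.7). *Slc2a1*, encoding GLUT1, a widely expressed transporter also found in the distal nephron, had 7.37 (4 to 12.4) and 11 (10.2 to 14.3). *Slc2a2* and *Slc5a1* overlapped in range, and *Slc2a1* was below *Slc5a1* in both sexes without overlap.

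**Figure D1:**
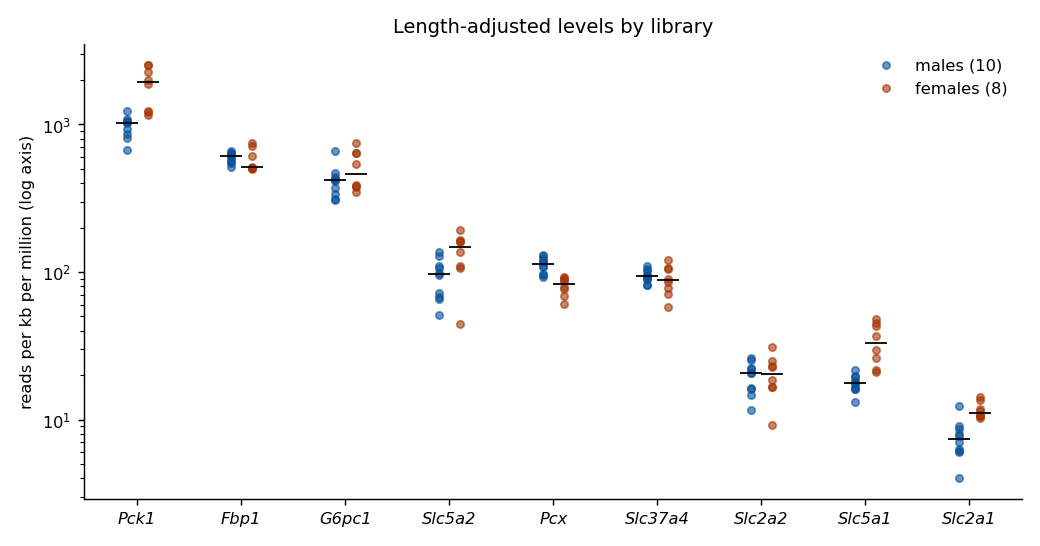
Level of each of the 9 tested genes in CPM per kb of exon, on a log axis, with 1 point per library for 10 males and 8 females and a black bar at the median. Genes are ordered by their median over the 18 libraries. *Pck1* had the highest median in both sexes and *Slc2a1* the lowest of the 9. The place of *Slc37a4* is uncertain, because reads on exons shared with *Trappc4* were left out.

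The count of some genes depends on their neighbours. In GRCm39 with GENCODE vM39, *Pck1* lies on chromosome 2 at 172994744 to 173001066, *G6pc1* on chromosome 11 at 101258369 to 101268729, and *Fbp1* on chromosome 13 at 63012567 to 63036263, and no exon of theirs is shared with another gene. *Slc5a1* lies on chromosome 5 at 33261563 to 33320214, *Slc2a2* on chromosome 3 at 28752051 to 28785508, and *Slc5a4b* on chromosome 10 at 75893328 to 75946795, also with no shared exon bases. *Slc37a4* on chromosome 9 at 44308144 to 44314265 shares 89.9% of its annotated exon bases with *Trappc4* on the opposite strand. *Slc5a2* on chromosome 7 at 127864829 to 127871602 shares 20.6% with *Rusf1*, *Pcx* on chromosome 19 at 4559902 to 4672189 shares 6.3% with *Rce1* and 2.3% with *Lrfn4*, and *Slc2a1* on chromosome 4 at 118965908 to 118996365 shares 5.3% with *Gm12868*. Counting took no account of strand and left out reads that could belong to 2 genes, while the level was divided by the full exon length. This can only lower the length-adjusted level, that of *Slc37a4* above all, so that its rank among the 9 genes is uncertain.

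*Slc5a4b*, a relative of the SGLT genes, was at the limit of detection. Its counts were 3, 2, 5, 7 and 6 in LP males 1 to 5, 3, 6, 4, 0 and 3 in NP males, 0, 3, 1, 3 and 0 in LP females, and 8, 3 and 0 in NP females, 57 reads in all 18 libraries. A count of 0 allows up to 3 counts by counting error alone, or 0.127 to 0.207 CPM in the 4 libraries at 0. No difference in this gene was detectable at this depth, and reads of its near copy *Slc5a4a* may be counted on either gene or on neither.

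The first question was whether the maternal diet altered these genes in the adult male kidney. Of the 9 genes tested, 0 were called at an adjusted p under 0.05 with edgeR's quasi-likelihood test, 0 had an unadjusted p under 0.05, and DESeq2 also called 0. Over all genes, 0.0379% were called in this comparison. The median log2 fold change of LP over NP was -0.026 for the 9 genes and -0.0039 for all 13181 genes tested, with 4 of the 9 higher in LP and 5 lower. The LP and NP values of all 9 overlapped, as did those of all but 0.713% of genes.

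*Pck1* in males was the gene with the smallest difference. Its normalized counts (counts divided by a size factor per library) were 68302, 74338, 56934, 53531 and 67676 in LP males 1 to 5 and 64718, 67371, 84626, 67403 and 45285 in NP males 1 to 5. The LP values lay within the range of the NP values. The log2 fold change was -0.026 with a 95% interval of -0.36 to 0.31 (adjusted p = 0.9996 by edgeR).

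*G6pc1* had normalized counts of 27795, 19683, 14344, 17251 and 17721 in LP males and 17027, 14417, 21014, 18673 and 13742 in NP males. LP male 1 was above all others, and the remaining values overlapped. The log2 difference was 0.20 (95% interval -0.18 to 0.59), and 0.034 without LP male 1. *Fbp1* had means of 26200 ± 2206 (SD, n = 5) in NP and 24325 ± 2157 (SD, n = 5) in LP males, and its log2 difference was -0.096 (-0.29 to 0.10). For *Pcx* the difference was -0.039 (-0.27 to 0.19) and for *Slc37a4* it was 0.08 (-0.14 to 0.30).

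Among the transporters, *Slc5a1* had normalized counts of 1419, 1207, 1299, 1487 and 1409 in LP males and 1407, 1273, 996, 1311 and 1206 in NP males. The 3 highest LP males were above the highest NP male, and the difference of 0.15 (SE 0.10) had a 95% interval of -0.071 to 0.38 and an exact two-sided permutation p of 0.183. *Slc2a1* had the largest difference of the 9 in males, -0.32 (-0.81 to 0.17), with 327, 524, 624, 678 and 657 in LP males and 792, 633, 520.1, 534 and 1066 in NP males. Both groups held low and high libraries, LP male 1 being the lowest and NP male 5 the highest. *Slc5a2* differed by 0.20 (-0.32 to 0.71) and *Slc2a2* by -0.051 (-0.48 to 0.38). With 5 mice against 5, the smallest exact p is 0.00794, and those of the 9 genes ran from 0.183 to 0.944.

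**Figure D2:**
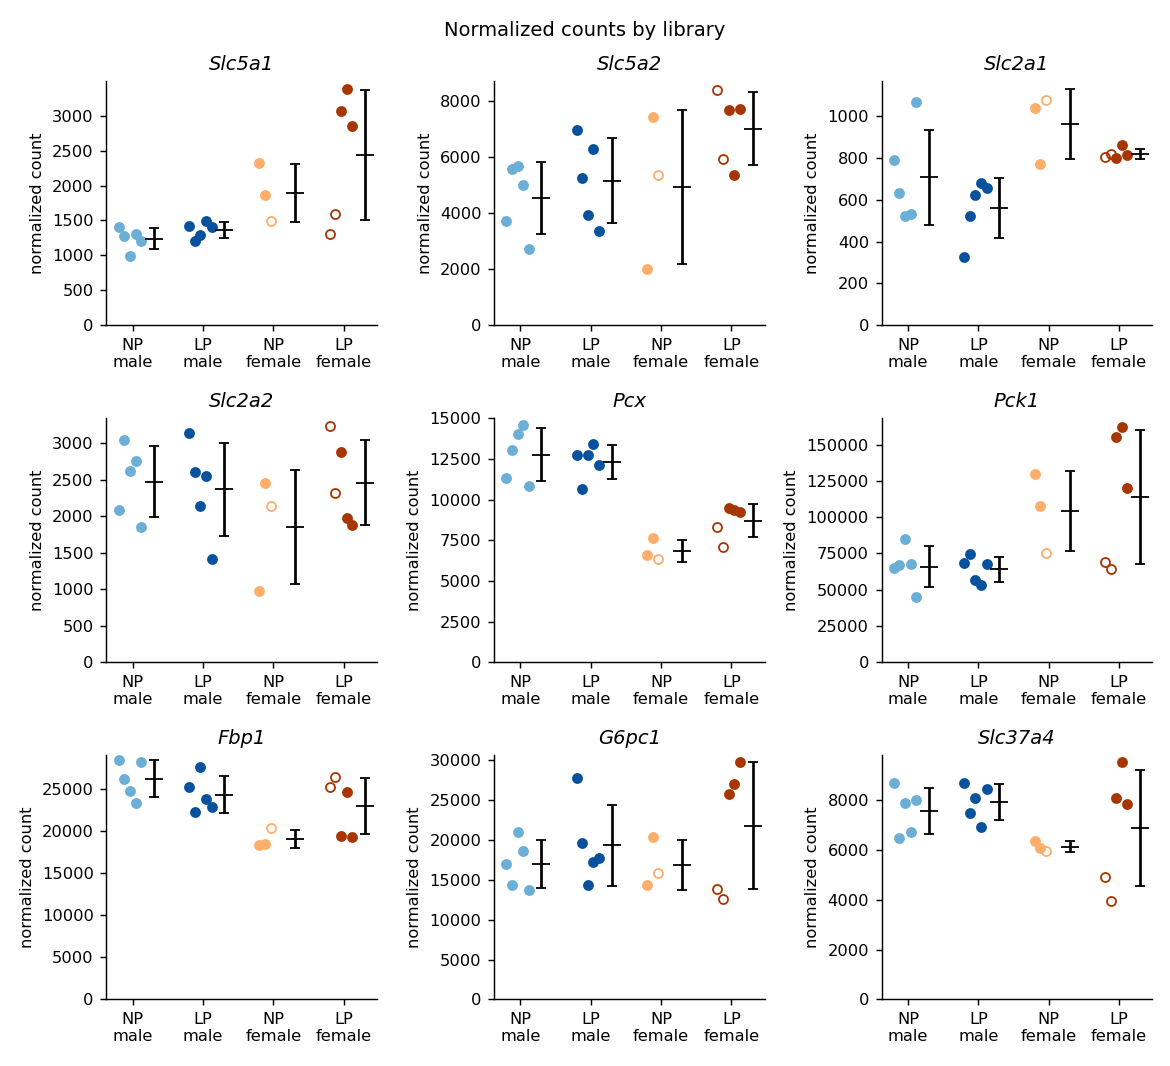
Normalized counts of the 9 tested genes in each library, with 1 point per mouse for 5 NP males, 5 LP males, 3 NP females, and 5 LP females, and bars for the mean and SD. Open points are LP female 1, LP female 2, and NP female 3, the libraries that stood apart, which are low for *Pck1*, *Slc5a1*, and *Slc37a4* among the females.

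The same question in females gave 0 genes of 9 called by edgeR, with 0 at an unadjusted p under 0.05, and 0 by DESeq2, which gave *Pcx* an unadjusted p of 0.0326. Over all 13510 genes, 0% were called by edgeR. Estimates were higher in LP females for 8 of the 9 genes and lower for 1, *Slc2a1*. Their median log2 difference was 0.33, where that of all genes was -0.013 and the median size of all genes' differences was 0.18. The intervals were wide, and the groups overlapped for all 9 genes, where 3.07% of all genes had groups that did not.

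*Pcx* had the smallest unadjusted p of the 9 in females, 0.0571. Its normalized counts were 8317, 7115, 9504, 9346 and 9253 in LP females 1 to 5 and 6572, 7615 and 6344 in NP females 1 to 3. Of the 5 LP females, 4 were above the highest NP female, and LP female 2 was within the NP range. The log2 difference was 0.33 (SE 0.15, 95% interval -0.012 to 0.67, adjusted p = 0.886 by edgeR), with an exact two-sided permutation p of 0.0714, where 5 against 3 mice cannot go below 0.0357. Without the 3 libraries that stood apart, the difference was 0.38 (adjusted p = 0.972 by edgeR).

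*Pck1* in females was split within each diet group. Normalized counts were 68889, 64043, 155077, 162365 and 119810 in LP females and 129787, 107748 and 75176 in NP females. The 3 low values were LP female 1, LP female 2, and NP female 3, and the other 5 were all higher than any male. The LP to NP difference was 0.11 (95% interval -0.70 to 0.92) with all 8 females and 0.27 in the 5 that remained without those 3.

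*Slc5a1* followed the same split, with 1308, 1594, 3071, 3378 and 2856 in LP females and 2319, 1869.8 and 1491 in NP females. Its diet difference was 0.35 (-0.38 to 1.07) with all females and 0.54 without the 3, where 3 LP females lay above both NP females, with an unadjusted p of 0.0133 and an adjusted p of 0.972 by edgeR. *G6pc1* had 13814, 12649, 25726, 27069.5 and 29778 in LP and 14409, 20356 and 15808 in NP females, LP females 3 to 5 being the highest. Its difference was 0.35 (-0.36 to 1.06) with all females, and 0.64 without the 3 (adjusted p = 0.972 by edgeR). *Slc37a4* had 4914, 3967, 8075, 9526 and 7842 in LP and 6378, 6072 and 5953 in NP females, with differences of 0.14 (-0.47 to 0.75) and, without the 3, 0.42 (adjusted p = 0.972 by edgeR). For these 3 genes the difference moved by over 1.5 times when the 3 libraries were left out, and none was called either way. Of the 9 genes, 4 then had an unadjusted p under 0.05, *Slc5a1*, *G6pc1* (0.0158), *Slc37a4* (0.0343), and *Pcx* (0.0405), against 0 with all 8 females. Over all genes, 630 of 14183 had such a p by edgeR without the 3 libraries, and 564 of 13510 with all 8 females. The 3 libraries held the lowest female values of *Slc5a1* and *Slc37a4*, and LP females 1 and 2 the lowest of *G6pc1*. The larger differences of these genes without them are therefore not independent support.

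Both *Slc5a2* and *Slc2a2* were lowest in the same NP female. *Slc5a2* had normalized counts of 8381, 5909, 7662, 5364 and 7696 in LP females and 1992, 7404 and 5360.3 in NP females, where NP female 1 was far below the rest. Its diet difference was 0.49 (-0.34 to 1.31), 0.13 without that library, and 0.93 without NP female 2 (unadjusted p = 0.034, adjusted p = 0.225 by edgeR). Without NP female 2, 2638 of 13579 genes had an unadjusted p under 0.05 by edgeR, so that such a p was common in that fit. *Slc2a2* had 3227, 2321, 2877, 1972 and 1880.3 in LP and 973, 2448 and 2139 in NP females, a difference of 0.38 (-0.31 to 1.08), 0.094 without NP female 1, and 0.66 without NP female 2. The 4 early proximal tubule markers summed to 800 CPM in NP female 1, the lowest of all 18 libraries. *Fbp1* differed by 0.25 (-0.12 to 0.62) and *Slc2a1* by -0.25 (-0.55 to 0.052). With the 3 libraries that stood apart left out, the differences were 0.54 for *Slc5a2*, 0.37 for *Slc2a2*, 0.17 for *Fbp1*, and -0.16 for *Slc2a1*.

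The diet effect was then compared between the sexes as an interaction over the 4 groups. Of the 9 genes, 0 were called by edgeR (1 at an unadjusted p under 0.05) or by DESeq2, beside 0.0158% of all 12665 genes by edgeR. The LP minus NP estimate was higher in females than in males for all 9 genes. The median of these differences was 0.18, and the median size of the estimate over all genes was 0.19. *Pcx* had the smallest unadjusted p, 0.0425, with a difference between the diet effects of 0.36 (95% interval 0.014 to 0.71, adjusted p = 0.977 by edgeR). *Fbp1* followed with 0.34 (-0.021 to 0.71). For *Slc2a2* the estimate was 0.43 (-0.36 to 1.23). When the 3 libraries that stood apart were left out, edgeR again called 0 of the 9, with 1 at an unadjusted p under 0.05, and the median was 0.33. The estimate was then 0.40 for *Pcx* (unadjusted p = 0.0346, adjusted p = 0.999 by edgeR), 0.26 for *Fbp1*, and 0.41 for *Slc2a2*. The estimates of 5 genes moved by over 1.5 times. *Slc5a1*, *G6pc1*, and *Slc37a4* moved from 0.18 to 0.38, from 0.13 to 0.43, and from 0.049 to 0.33. *Pck1* and *Slc2a1* moved from 0.12 to 0.28 and from 0.066 to 0.15. *Slc5a2* moved less, from 0.29 to 0.32.

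**Figure D3:**
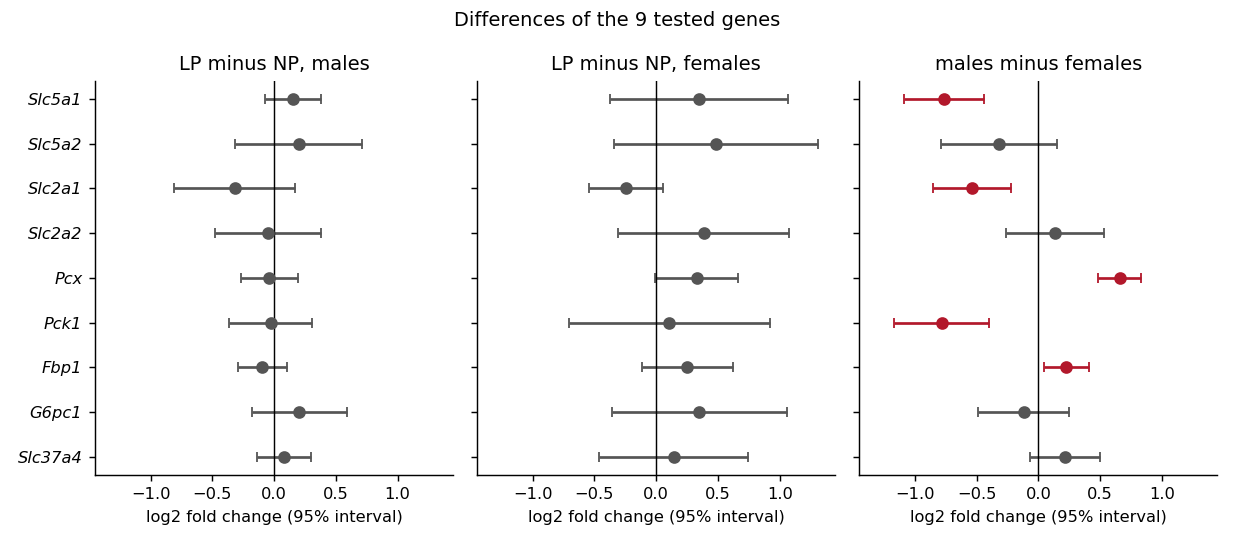
Log2 fold change of the 9 tested genes with its 95% interval from edgeR, for LP minus NP in 5 and 5 males, LP minus NP in 5 and 3 females, and 10 males minus 8 females. Red marks an adjusted p under 0.05; the 5 red genes are all in the comparison of males with females.

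More of these genes differed between males and females than between the diets. Of the 9 genes, 5 were called at an adjusted p under 0.05 by edgeR, 2 of them higher in males and 3 higher in females, and DESeq2 called 5. Over all 12665 genes, 38.7% were called, 18.9% higher in males and 19.8% higher in females, so that a call was common in this comparison. The median log2 difference, males minus females, was -0.12 for the 9 genes and -0.051 for all genes. Leaving out the 3 libraries that stood apart, edgeR called 5 of the 9 and 37.7% of all genes. Of the 5 genes, 4 (*Pcx*, *Slc5a1*, *Pck1*, and *Slc2a1*) were called in each of the 18 fits that left out 1 library.

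*Pcx* was higher in every male than in every female. The 10 males had normalized counts from 10636 to 14590.1 and the 8 females from 6344 to 9504, with means of 12545 ± 1316 (SD, n = 10) and 8008 ± 1279 (SD, n = 8). It was the 1 gene of the 9 whose groups did not overlap, beside 8.64% of all genes. The level was 1.58 times that of females (log2 0.66, SE 0.083, adjusted p = 9.09e-06 by edgeR), and the exact two-sided permutation p was 4.57e-05, the smallest that 10 against 8 mice can give. The difference was 0.58 without the 3 libraries that stood apart, 0.48 within LP mice, and 0.85 within NP mice, and it was called each time.

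*Slc5a1* was higher in females. Its lowest, median, and highest normalized counts were 996, 1305 and 1487 in males and 1308, 2094 and 3378 in females. Of the 10 males, 5 were below the lowest female, and the 5 females that did not stand apart, at 1869.8 to 3378, were above all males. Females had 1.7 times the level of males (log2 males minus females -0.76, SE 0.15, adjusted p = 0.000847 by edgeR, exact permutation p = 0.000731). The difference was -1.01 without the 3 libraries, -0.85 within LP mice, and -0.66 within NP mice, and it was called each time. The 3 were the females lowest in *Slc5a1*, so that the call without them is not independent support.

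*Pck1* was also higher in females, with 45285, 67387 and 84626 as lowest, median, and highest normalized counts in males and 64043, 113779 and 162365 in females. The 3 females that stood apart, at 64043 to 75176, lay inside the male range, and the other 5, at 107748 to 162365, lay above it. Females had 1.72 times the level of males (log2 -0.78, SE 0.18, adjusted p = 0.00275 by edgeR, exact permutation p = 0.00325). Without the 3 libraries the log2 difference was -1.06 (adjusted p = 2.01e-05 by edgeR). The 3 were the females lowest in *Pck1*, so that this larger difference and its p are not independent support. The difference was -0.84 and called within LP mice, and -0.71 with an adjusted p of 0.0647 by edgeR within NP mice.

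*Slc2a1* was likewise higher in females, with 327, 628 and 1066 as lowest, median, and highest in males and 770.5, 818 and 1076 in females. Of the 10 males, 8 were below the lowest female, and NP males 1 and 5 were within the female range. The log2 difference was -0.54 (SE 0.15, adjusted p = 0.00887 by edgeR, exact permutation p = 0.00594). It was -0.49 and called without the 3 libraries that stood apart (adjusted p = 0.0443 by edgeR). It was -0.56 and called within LP mice, and -0.49 and not called within NP mice (adjusted p = 0.194 by edgeR). Markers of several cell types differed in the same direction, where 19.8% of all genes were called higher in females. Called higher in females were 3 of 3 distal convoluted tubule genes, 5 of 5 intercalated cell genes, 3 of 5 principal cell genes, 3 of 5 thick ascending limb genes, and 5 of 5 podocyte genes. These counts without the 3 libraries that stood apart were 3, 4, 2, 4, and 5 in the same order, and 1 thick ascending limb gene was then called higher in males. The principal cell markers summed to 365 to 1004 CPM in males and 563 to 1137 CPM in females, and their part in the difference was not tested.

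*Fbp1* was higher in males by a small margin, 25263 ± 2282 (SD, n = 10) against 21518 ± 3309.7 (SD, n = 8). The log2 difference of 0.23 (SE 0.087) had an adjusted p of 0.0477 by edgeR and an exact permutation p of 0.0126. The call was lost in 16 of the 18 fits that left out 1 library, with differences between 0.19 and 0.25 and adjusted p from 0.0314 to 0.0993, and within NP mice (0.41, adjusted p = 0.0639). It was kept without LP female 1 or without LP female 2. Within LP mice the difference was 0.057. Without the 3 libraries that stood apart, it was 0.32 and called.

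The other 4 genes were not called between males and females. *G6pc1* differed by -0.12 (95% interval -0.49 to 0.25), *Slc37a4* by 0.22 (-0.065 to 0.50), *Slc2a2* by 0.14 (-0.26 to 0.53), and *Slc5a2* by -0.32 (-0.79 to 0.15). *Slc5a2* was called when NP female 1 was left out, at -0.51 with an adjusted p of 0.0424 by edgeR. Under the same omission the estimate for *Slc2a2* was -0.017. Without the 3 libraries, *G6pc1* was at -0.31 with an adjusted p of 0.11 by edgeR, *Slc37a4* at 0.052, *Slc2a2* at 0.26, and *Slc5a2* at -0.28, and none of these 4 was called.

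The balance between paired genes was taken as a ratio of length-adjusted levels within each library. *Slc5a1* made up 16.8% ± 4.55 (SD, n = 10) of the sum of *Slc5a1* and *Slc5a2* in males and 22.0% ± 11.2 (SD, n = 8) in females, with an exact permutation p of 0.22 (adjusted 0.471). *Slc2a1* made up 28.5% ± 9.79 (SD, n = 10) of the sum of *Slc2a1* and *Slc2a2* in males and 37.9% ± 10.8 (SD, n = 8) in females (exact permutation p = 0.0713, adjusted 0.357). *Pck1* exceeded *Pck2*, its mitochondrial counterpart, by 461 ± 98.1 times (SD, n = 10) in males and 655 ± 236 times (SD, n = 8) in females, with an exact permutation p of 0.0318 (adjusted 0.239). *Fbp1* exceeded *Fbp2*, the isoform known from muscle, by 390 ± 88.1 times (SD, n = 10) in males and 105 ± 45.9 times (SD, n = 8) in females, and the groups did not overlap (exact permutation p = 4.57e-05, adjusted 0.000686). *G6pc1* exceeded *G6pc3*, the widely expressed isoform, by 38.8 ± 12.8 times (SD, n = 10) and 50.7 ± 20.5 times (SD, n = 8), with an exact permutation p of 0.155 (adjusted 0.471). None of these 5 ratios had an exact permutation p under 0.05 between LP and NP in either sex. The p-values were adjusted over the 15 tests of the ratios. In the 5 females that did not stand apart, the *Slc5a1* share was 26.8% ± 11.7 (SD, n = 5) and the *Slc2a1* share 40.0% ± 12.6 (SD, n = 5), with exact permutation p-values against males of 0.0406 and 0.0826. *Pck1* then exceeded *Pck2* by 790 ± 184 times (SD, n = 5), *G6pc1* exceeded *G6pc3* by 60.4 ± 20.4 times (SD, n = 5), and *Fbp1* exceeded *Fbp2* by 76.1 ± 9.57 times (SD, n = 5). Adjusted over these 5 tests, the exact permutation p-values were 0.00332 for *Pck1* over *Pck2* and for *Fbp1* over *Fbp2*, 0.0507 for *Slc5a1* and for *G6pc1* over *G6pc3*, and 0.0826 for *Slc2a1*. The 3 libraries had been set apart by values that moved with *Pck1*, and among the females they were also low in *Slc5a1* and, with overlap, in *G6pc1*. The p-values without them for the ratios of *Pck1*, *Slc5a1*, and *G6pc1* are therefore not independent support.

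The females that were low in *Pck1* were also low in *Fkbp5*, a textbook target of the glucocorticoid receptor. *Fkbp5* was at 31.0 CPM in LP female 1, 23.7 CPM in LP female 2, and 43.4 CPM in NP female 3, and between 268 and 567.5 CPM in the other 15 libraries. In normalized counts, *Pck1* was at 64043 to 75176 in those 3 females and 107748 to 162365 in the other 5, and *Slc5a1* at 1308 to 1594 against 1869.8 to 3378. *Slc37a4* was at 3967 to 5953 against 6072 to 9526, again without overlap. *G6pc1* was at 12649 to 15808 against 14409 to 29778, with NP female 1 within the range of the 3. *Fbp1* went the other way, at 20328 to 26407 against 18375 to 24621, with overlap. These libraries were grouped by their values, so that the contrast was not tested. Other lists split the same way without overlap. The 5 fasting-induced genes summed to 764 to 1048 CPM in the 3 females, 1109 to 1613 CPM in the other 5, and 491 to 820 CPM in males. The 15 listed glycolytic genes summed to 1306 to 1476, 1583 to 2062, and 1255 to 1864 CPM in the same order. Which of these states goes with the level of *Pck1* was not tested. Signs of other cells and of library quality moved with the same split. The 5 leukocyte markers (*Ptprc*, *Cd68*, *C1qa*, *C1qb*, *Lyz2*), all detected, summed to 65.3 to 91.2 CPM in the 3 females, to 38.0 to 55.6 CPM in the other 5, and to 28.2 to 73.5 CPM in males. Reads that mapped to several places made up 8.91%, 7.92%, and 12.6% in the 3, 6.76% to 7.38% in the other 5, and 5.92% to 7.78% in males. Neither of these ranges overlapped between the 3 and the other 5, and their part in the levels of *Pck1*, *Slc5a1*, and *Slc37a4* was not tested. The 5 general proximal tubule markers summed to 9297 to 12110 CPM in the 3 and to 10820 to 15760 CPM in the others.

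**Figure D4:**
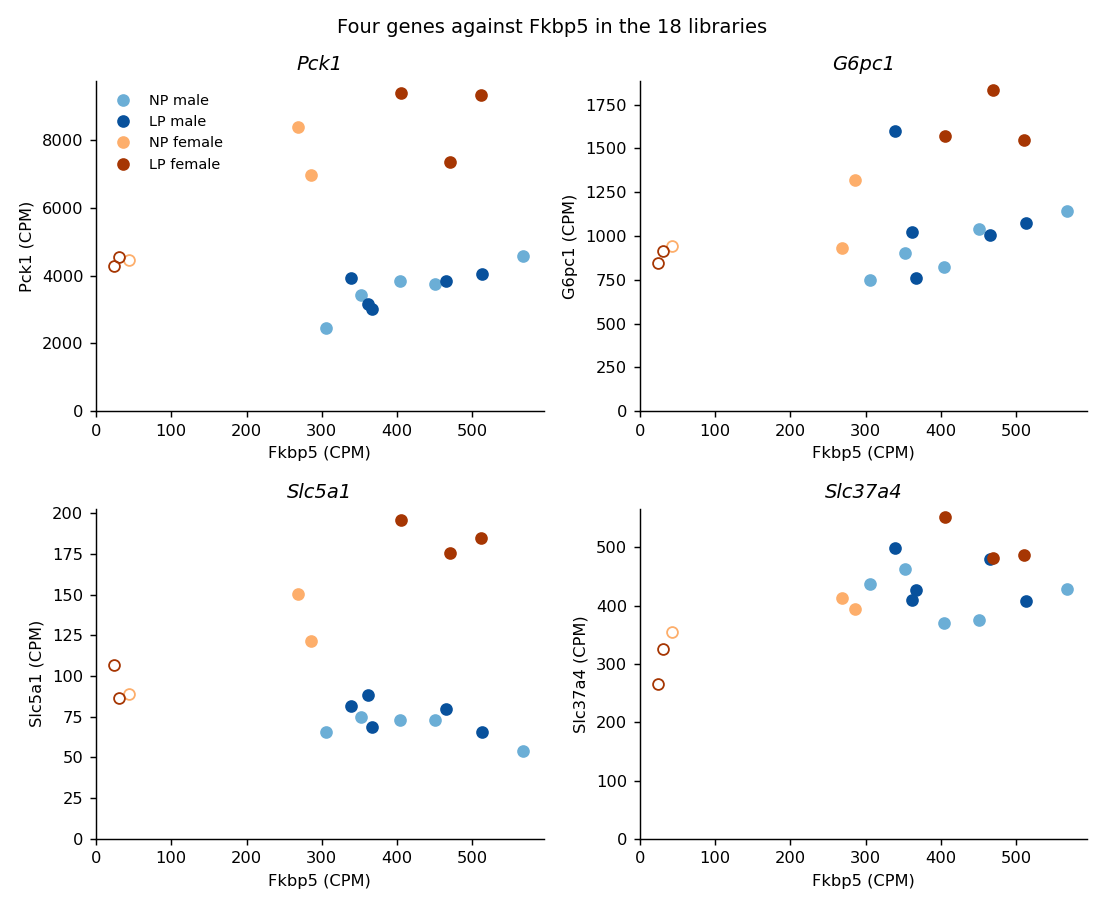
CPM of *Pck1*, *G6pc1*, *Slc5a1*, and *Slc37a4* against CPM of *Fkbp5* in each of the 18 libraries, colored by group. Open points are LP female 1, LP female 2, and NP female 3, at 23.7 to 43.4 CPM of *Fkbp5*; the other 15 libraries are at 268 CPM or above.

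Among the 10 males, none of which stood apart, *Pck1* varied with the summed glucocorticoid-induced genes. Over log2 CPM, Pearson's r was 0.917 (permutation p = 0.00032, adjusted 0.00288) and Spearman's rho was 0.879 (permutation p = 0.00164, adjusted 0.0148), and r was 0.96 without the 2 males farthest from the median of the list. The 9 genes were each set against this list and against the 4 early proximal tubule markers (*Slc6a19*, *Slc7a7*, *Slc7a8*, *Slc4a4*), 18 relations in all, and p-values were adjusted over them. *G6pc1* had an r of 0.592 with the glucocorticoid list (permutation p = 0.0688, adjusted 0.113), and *Slc5a1* -0.124 (permutation p = 0.73, adjusted 0.777). *Fbp1* went the other way, at -0.703 (permutation p = 0.0237, adjusted 0.0592), as did *Slc2a1* at -0.676 (permutation p = 0.0296, adjusted 0.0592). Without the 2 farthest males these were -0.475 and -0.242. *Slc5a2*, *Pcx*, and *Slc2a2* had an r of 0.625, 0.467, and 0.372, and *Slc37a4* -0.124 (adjusted permutation p from 0.0976 to 0.777). The male range of the glucocorticoid list was 649 to 1176 CPM. All values share the library total as denominator, and each diet group alone has too few mice for a correlation.

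*Slc5a2* followed the early proximal tubule markers. In the 10 males r was 0.973 (permutation p = 1e-05, the smallest that 100000 permutations can give, adjusted 0.00018), rho was 0.915 (permutation p = 0.0005, adjusted 0.009), and r was 0.96 without the 2 farthest males. For *Slc2a2* r was 0.817 (permutation p = 0.00441, adjusted 0.0265), rho was 0.818 (permutation p = 0.00618, adjusted 0.0371), and r was 0.835 without the 2 farthest. These 2 genes are known from the early segments, as are the markers. The gluconeogenic genes *G6pc1*, *Pcx*, and *Pck1* also varied with the markers, at r of 0.677, 0.718, and 0.681 (permutation p = 0.0275, 0.0236, and 0.0269, adjusted 0.0592 each) and rho of 0.782, 0.673, and 0.661 (permutation p = 0.0105, 0.0394, and 0.0441, adjusted 0.0473, 0.0992, and 0.0992). Without the 2 farthest males, r was 0.579 for *G6pc1*, 0.471 for *Pcx*, and 0.39 for *Pck1*. *Slc5a1*, of the later segments, had an r of 0.0974 (permutation p = 0.792, adjusted 0.792). *Slc2a1* had an r of -0.71 that fell to -0.376 without the 2 farthest males (permutation p = 0.017, adjusted 0.0592). The markers ranged from 898 to 2148 CPM in the males, with *Slc5a2* lowest in NP male 5, which also had the lowest marker sum.

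**Figure D5:**
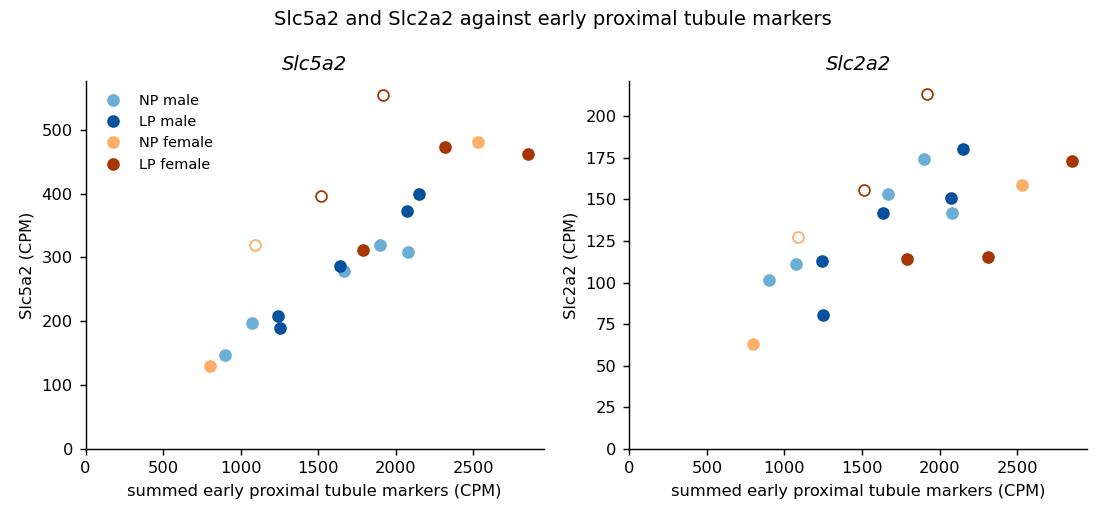
CPM of *Slc5a2* and *Slc2a2* against the summed CPM of 4 early proximal tubule markers in each of the 18 libraries, colored by group, with open points for the 3 females that stood apart. The male points rise together in both panels, and NP female 1 is at the lowest marker sum, 800 CPM.

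The genes most alike were taken as the 3 with the highest correlation of log2(CPM + 1) over the 18 libraries, after the 4 group means had been removed, among 12665 genes. For *Slc5a2* they were *Myrf* (r = 0.973), *Slc34a3* (0.965), and *Slc16a12* (0.938), and for *Slc2a2* they were *Pcdh7* (0.953), *Slc34a3* (0.938), and *Myrf* (0.915), so that the pair shared 2 of 3 neighbours. For *Slc5a1* they were *Aplp2* (0.963), *Slco2a1* (0.954), and *Egf* (0.937). For *Pck1* they were *Tnfrsf21* (0.95), *Suco* (0.949), and *Herpud1* (0.934), and for *G6pc1* they were *Ndrg1* (0.877), *Trpc1* (0.874), and *Trp53inp1* (0.871). *Slc37a4* was nearest to *Hmgcs1* (0.96), *Serpinf2* (0.901), and *Cebpb* (0.899), *Pcx* to *Cluh* (0.923), *Zfp106* (0.921), and *N4bp2* (0.919), *Fbp1* to *Gamt* (0.893), *Dusp22* (0.876), and *Nudt22* (0.872), and *Slc2a1* to *Gal3st1* (0.893), *Klhdc8a* (0.886), and *Aqp2* (0.883), the water channel of principal cells. These are descriptions over libraries that include the 3 females that stood apart, and carry no test.

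Other genes of the pathway were taken from 5 lists. Between LP and NP, 0 of 72 list genes tested in males and 0 of 70 in females were called by edgeR, beside 0.0379% and 0% of all genes, and 0 of 70 were called for the interaction. At an unadjusted p under 0.05 were *Mpc1*, *Gpt2*, and *Txnip* in males and *Hnf4a* in females, each named because the count was small. Between males and females, 30 of 70 were called, beside 38.7% of all genes, so that the share was near that of the background. Without the 3 libraries that stood apart, 34 of 72 were called between males and females, beside 37.7% of all genes. Between LP and NP females 0 of 73 were then called, and 0 of 72 for the interaction. By list, the calls higher in males and higher in females were then 0 and 8 for other glucose transporters and 1 and 3 for gluconeogenic steps. They were 4 and 2 for substrate supply, 1 and 5 for glycolysis, and 3 and 7 for regulators. The list counts that follow are with all females.

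Among 11 other glucose transporters tested, 7 were higher in females and 0 in males, with a median log2 difference, males minus females, of -0.58. *Slc2a4*, the insulin-responsive transporter, ran from 392 to 619.7 normalized counts in males and from 589 to 939.6 in females (log2 -0.77, adjusted p = 1.22e-05 by edgeR). *Slc5a9* (-0.70), *Pdzk1ip1* (-0.74), whose product is an accessory subunit of SGLT2, and *Slc2a12* (-0.82) were next by adjusted p. Of 16 other genes of the gluconeogenic steps, 2 were higher in males, *Tpi1* (0.52) and *Gpi1* (0.26), and 2 higher in females, *Fbp2* (-1.79) and *Pck2* (-0.32), and the list's median was 0.049.

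Of 13 genes that supply substrate, 4 were higher in males and 2 in females, with a median of 0.22. *Slc5a8*, a sodium-coupled carrier of lactate, ran from 3767 to 6402 in males and from 926 to 2447 in females (log2 1.71, adjusted p = 3.57e-07 by edgeR). *Ldha* (0.63) and *Gk* (0.32) were also higher in males, and *Glud1* (-0.61) and *Gpt2* (-0.78) higher in females. Of 12 glycolytic genes, 5 were higher in females, among them *Pfkm* (-0.35), *Pkm* (-0.52), *Pklr* (-0.60), and *Pfkl* (-0.37), and 1, *Pfkfb4* (0.70), in males, with a median of -0.38.

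Of 18 regulators, 7 were called, 5 of them higher in females, with a median of -0.14. *Hnf4a* (0.34), a transcription factor of the proximal tubule and liver, was higher in males. *Cebpa* (-0.87), *Sik1* (-0.49), *Txnip* (-1.004), and *Irs1* (-0.56) had the smallest adjusted p of those 5. Markers of the late proximal tubule differed by sex as well, but not in 1 direction. Of the 4, *Slc7a13* (7.50) and *Atp11a* (2.31) were called higher in males and *Slc6a18* (-0.88) higher in females, and *Slc3a1* (0.12) was not called. Without the 3 libraries that stood apart, 2 were called higher in males and 1 in females. Their summed level was 3432 to 5107 CPM in males and 1079 to 2700 CPM in females, without overlap. As the 4 disagree, this sum does not show more late proximal tubule RNA in males. For the early markers the sums were 898 to 2148 and 800 to 2850 CPM. Their part in the differences between males and females was not tested.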

How the data were processed

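Kidney RNA was sequenced from 18 mice as poly(A)-selected, non-directional libraries, from a piece of the left kidney according to the study's methods. The authors trimmed adapters, aligned reads with STAR to GRCm39 with GENCODE vM36, and deposited raw counts of reads per gene. The STAR version is not given in the sources used here. The counts taken without regard to strand were used. Reads not assigned to 1 gene (28.6% to 36.1%) were left out. Gene symbols were matched with GENCODE vM39 for 78168 of 78239 identifiers.

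The 10 genes and all lists were chosen with earlier results of these data known. Each comparison was fitted with edgeR 4.0.16 in R 4.3.3 (TMM factors, quasi-likelihood test) on the genes that reached 10 counts in each of its libraries. P-values were adjusted by Benjamini and Hochberg's method over those genes, and a call is an adjusted p under 0.05. The SE was taken as the log2 fold change over the root of F, and 95% intervals from its t distribution. For each of the 10 genes, the means of log2(normalized count + 1), with DESeq2 size factors, were compared by an exact permutation test, two-sided. Ratios and correlations were computed with numpy 2.4.6 and scipy 1.17.1. The edgeR step was tested on simulated data. Of the pathway lists, at most 4 genes per direction with the smallest adjusted p under 0.05 were named; the rule was read per list after the values had been seen. Some list genes are not reported here. Markers were given as list counts or sums, and those of the late proximal tubule also singly. Intervals and limits at 0 cover counting error only where they rest on counts.

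Alternatives were no filter, filterByExpr, DESeq2 size factors, DESeq2 1.42.0, a 1.5-fold minimum, the replicate number as a block, all 4 groups in 1 model, 1 diet only, leaving out the 3 libraries, and leaving out each library.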

Additional observations from a re-analysis of the deposited data

How the results depend on the processing

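In males against females, the number of the 9 genes called was 5. It was 3 with a 1.5-fold minimum and 2 within NP mice, where fewer mice were compared, and 4 to 5 when each library was left out. In the other 3 comparisons it was 0 under every alternative. The estimate for *Slc2a2* in males against females was 0.14, and it was -0.074 within LP mice and between -0.017 and 0.26 when each library was left out.

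Signs near 0 changed when each library was left out, and none of these estimates was called. For LP against NP in males the ranges were -0.18 to 0.087 for *Slc2a2*, -0.092 to 0.015 for *Pcx*, and -0.13 to 0.079 for *Pck1*, and in females -0.075 to 0.31 for *Pck1*. For the diet effect in females against males they were -0.091 to 0.69 for *Slc5a2*, -0.14 to 0.16 for *Slc2a1*, -0.059 to 0.31 for *Pck1*, and -0.087 to 0.20 for *Slc37a4*. Other estimates kept their sign and moved by over 1.5 times. In males *G6pc1* ran from 0.034 to 0.30, *Slc5a2* from 0.059 to 0.32, *Slc5a1* from 0.082 to 0.20, *Slc2a1* from -0.41 to -0.13, and *Slc37a4* from 0.034 to 0.13. In females *Slc37a4* ran from 0.0062 without LP female 4 to 0.29, *Slc5a2* from 0.13 to 0.93, *Slc2a2* from 0.094 to 0.66, *G6pc1* from 0.22 to 0.52, *Slc5a1* from 0.20 to 0.53, and *Slc2a1* from -0.37 to -0.15. For the diet effect in females against males *G6pc1* ran from 0.0049 to 0.30, *Slc5a1* from 0.044 to 0.35, and *Slc2a2* from 0.12 to 0.67.

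The labels do not say whether the replicate numbers pair the mice. Deviations of same-numbered LP and NP libraries from their group means correlated at -0.297 to 0.327 in males and -0.607 to -0.388 in females. Each female pair joined 1 library that stood apart with 1 that did not, so that the female values cannot decide whether mice were paired. With the replicate block, the LP to NP difference in females was -0.026 for *Slc5a1*, -0.24 for *Pck1*, -0.029 for *G6pc1*, and -0.20 for *Slc37a4*, and the difference of diet effects was -0.033 for *Slc2a1* and -0.057 for *Slc37a4*. The block changed 1 call, that of *Fbp1* between males and females (adjusted p = 0.0738 by edgeR), which was also lost with no filter (adjusted p = 0.0706 by edgeR). The ratio of *Pck1* to *Pck2* between males and females passed the threshold without the 3 libraries that stood apart, a setting added for the ratios after the data had been seen. The cause was not tested.

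The lowest of the 9 genes had 264 counts in its lowest library. *Slc5a4b*, with 0 to 8 counts per library, is limited by depth.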
